A study of Mus musculus with 4 samples.

Results

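Aldehyde dehydrogenases were examined in the mouse line NSCL61, whose cells initiate gliomas, with Eva1 knocked down and in its control. The genes described are Aldh1a1, Aldh1a2, Aldh1a3, Aldh1a7, Aldh1b1, Aldh2, Aldh3a1, Aldh3a2, Aldh6a1 and Aldh7a1. They were taken as every probe whose gene symbol in the platform annotation was one of these names, which gave 10 probes, 1 for each of the 10 genes, among 23473 probes in all. The remaining family members with a named probe also numbered 10 and are given further on for comparison. NSCL61 was made from neural stem cells that lack p53 and overexpress an oncogenic HRas, and per the labels it derives from P0 C57BL6 brain, so both groups share this background. The Eva1 shRNA group held 2 arrays of NSCL61 cells expressing a short hairpin RNA (shRNA) against Eva1. The control group held 2 arrays labelled as NSCL61 alone, which the series title describes as carrying a control hairpin. Transformants were selected with hygromycin for 1 week in the treatment protocol and for 2 weeks in the growth protocol's note on the Eva1 shRNA cells. The model is 1 cell line, and nothing in the labels names the arrays of a group as separate cultures, so the p-values reflect array-to-array spread alone, which may be technical.

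Aldehyde dehydrogenases oxidise aldehydes to carboxylic acids with NAD+ or NADP+, and the family clears aldehydes from alcohol, lipid peroxidation and amino acid breakdown. The ALDH1A enzymes convert retinaldehyde to retinoic acid, a ligand of nuclear receptors that is used in neural differentiation. High aldehyde dehydrogenase activity is used to enrich stem-like cells from tumours, and human ALDH1A3 has been described as a marker of mesenchymal-type glioma stem cells.

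Each array was a 1-colour chip, and levels are the deposited intensities, in arbitrary units scaled so that the median of an array was near 25. Changes are log2 differences, Eva1 shRNA minus control, after quantile normalization, with limma's standard error (SE) and an adjusted p over the 13765 genes tested. A gene was called at an adjusted p under 0.05. Of all genes tested, 12.5% were called higher and 13.5% lower in the Eva1 shRNA cells, and the median change was -0.01. With the authors' scaling in place of quantile normalization the median change was 0.18 and 67.7% of the calls were higher, against 48.1% in the main fit, so changes are read relative to that of all genes. Mpzl2, the current name of Eva1, was 8.72-fold lower (log2 change -3.12, adjusted p = 0.00105). Of the neural stem and radial glia markers, Nes and Vim were bright on every array. Of 5 tested, 0 were called higher and 2 lower (Fabp7 -1.15 and Sox9 -0.87). Nes (-0.47), Msi1 (-0.24) and Vim (0.33) did not pass. The list's summed intensity, mostly Vim, was 26643 and 20808 in the Eva1 shRNA cells, against 17091 and 16018 in the control cells. Prom1, outside the fit, had 11.8 and 9.76 in the Eva1 shRNA cells, against 3.25 and a blank in the control cells. Gfap, an astrocyte marker, was blank on 1 array of each group, and the astrocyte list had 1 gene higher and 1 lower of 4. The oligodendrocyte lineage list had 0 higher and 2 lower of 6. Its summed intensity was 145 and 147 in the Eva1 shRNA cells, against 228 and 216 in the control cells. The 2 lower genes were Pdgfra (log2 change -1.66) and Cnp (-1.06). Olig2 (-0.66), Mbp (-0.21), Mag (-0.003) and Olig1 (0.13) did not pass, so a fall was not called for every gene in the list. Of the 6 changes, 5 were below 0 and 1, that of Olig1, was above. The fibroblast, pericyte and smooth muscle list had 3 higher and 0 lower of 6, and its sum was 613 and 465 in the Eva1 shRNA cells, against 199 and 188 in the control cells. That gap was Acta2, at 408 and 316 in the Eva1 shRNA cells, against 4.04 and 4.38 in the control cells, and without it the sums were 205 and 149 in the Eva1 shRNA cells, against 195 and 183 in the control cells. The microglia and leukocyte list had 0 called of 5 by limma (1 at an unadjusted p under 0.05, Cx3cr1) and sums of 101 and 81.0 in the Eva1 shRNA cells, against 75.3 and 73.6 in the control cells. Of its genes Csf1r ran from 34.0 to 53.0, while Ptprc was at most 1.74 and blank in the control. The neuron list had 1 higher and 0 lower of 5, and the 1 endothelial gene tested was not called. The part of these lists in the results below was not tested, and in a bulk culture fewer cells of a type and less RNA per cell cannot be told apart.

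The knockdown cells had much less Aldh1a3, less Aldh6a1 and more Aldh3a1, while the other 5 tested members did not pass. Of the 8 members tested, 1 was higher and 2 were lower, beside 12.5% and 13.5% of all genes, or 26.0% in either direction. All 3 called changes were over 2-fold. Thus 1 of the 8 tested members was called higher by at least 2-fold, and 2 were called lower by at least 2-fold. Among all genes tested, these shares were 5.17% and 6.41%. Leaving the test aside, 1 member was higher and 4 were lower with no overlap between the groups after normalization. Of all genes, 32.6% were higher and 34.1% lower in this way, or 66.7% in either direction. This split depends on the normalization. On the deposited intensities Aldh1a7, Aldh1b1 and Aldh2 were also higher without overlap, while Aldh1a2 and Aldh3a2 overlapped. The members' median change was -0.16. Both members outside the fit, Aldh1a1 and Aldh7a1, had blank cells. With 8 genes these counts do not set the members apart from genes at large, and the called members went both ways.

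**Figure D1:**
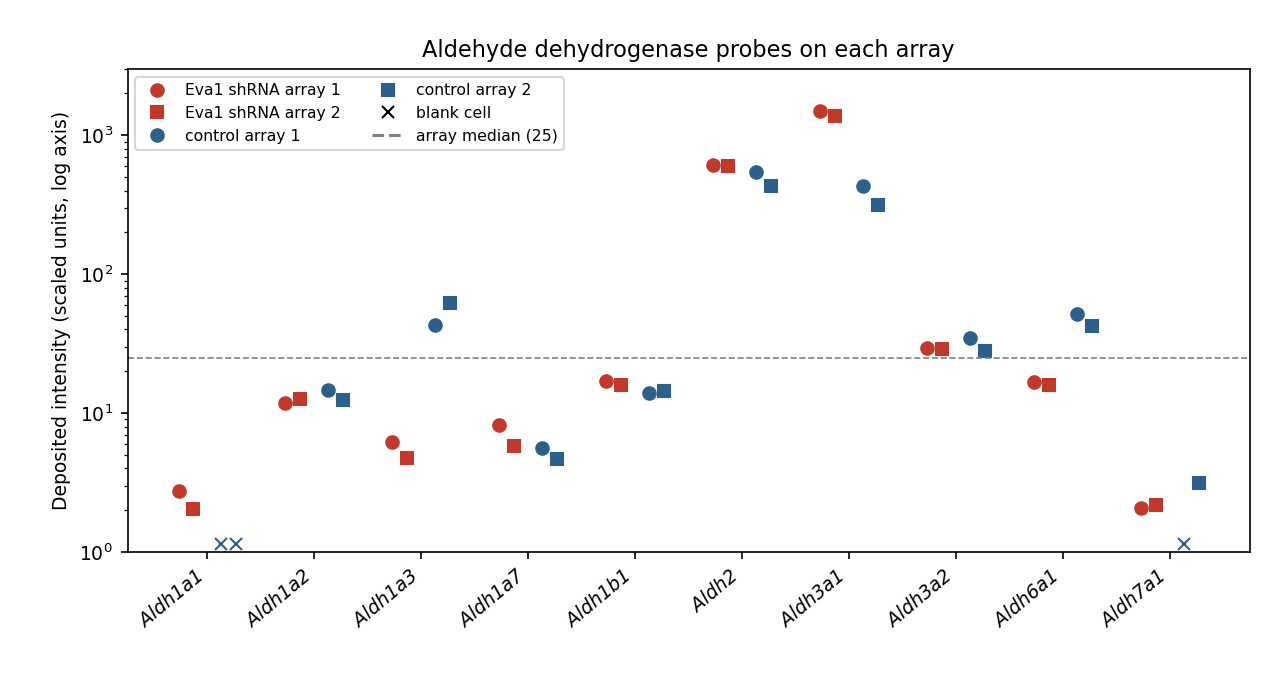
Deposited intensity of each member on each array (log axis), with Eva1 shRNA arrays in red on the left and control arrays in blue on the right of each gene, crosses at the bottom for blank cells and a dashed line at the array median of 25. Aldh1a3 and Aldh6a1 are lower and Aldh3a1 is higher on both Eva1 shRNA arrays, and Aldh1a1 is blank on both control arrays.

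Among the enzymes that make retinoic acid, Aldh1a3 stood out. Aldh1a3 had intensities of 6.14 and 4.78 on the Eva1 shRNA arrays, against 43.0 and 62.3 on the control arrays. Both control values lay above the array median of 25 and both knockdown values far below it. The means were 5.46 ± 0.962 in Eva1 shRNA cells and 52.6 ± 13.6 in control cells (SD, n = 2 each). The log2 change was -3.45 (SE 0.22, 95% interval -4.01 to -2.90), an 11.0-fold fall with an adjusted p = 0.00117 (limma, two-sided). Ordered by size among 13765 genes, this fall came at rank 16 and that of Mpzl2 at rank 25. The size is less settled than the call, because the knockdown values lay just above 4.71, the 95th percentile of filled cells of probes that were blank elsewhere. Adding 16 units to each intensity before taking log2 shrinks changes of dim probes, and Aldh1a3 then had -1.76.

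Aldh1a2, the main source of retinoic acid in the early embryo, was dim in both groups. Its intensities were 11.9 and 12.6 in the Eva1 shRNA cells, against 14.7 and 12.4 in the control cells. After normalization the groups did not overlap, but the log2 change of -0.38 did not pass (95% interval -0.82 to 0.07, adjusted p = 0.177). A fall of the size seen for Aldh1a3 lies outside that interval.

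Aldh1a1, a cytosolic retinaldehyde dehydrogenase often used as a stem cell marker, was at the bottom of the scale. It was filled on both Eva1 shRNA arrays, at 2.75 and 2.05, and blank on both control arrays. No fold is given, since the filled values were close to 2.16, the median of filled cells of partly blank probes. With blank cells set to the lowest value of their array the change was 0.74 and did not pass (adjusted p = 0.0524). Its rodent paralog Aldh1a7 had 8.17 and 5.78 in the Eva1 shRNA cells, against 5.63 and 4.66 in the control cells. After normalization these values overlapped, and the log2 change was 0.22 (95% interval -0.33 to 0.77, adjusted p = 0.503).

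Aldh1a1 and Aldh1a7 are neighbouring genes with no other coding gene between them, and their start regions show how alike they are. The RefSeq promoter windows (GRCm38.p6, 250 bases before to 50 after a gene start) of Aldh1a7, at chr19:20727507-20727806 on the minus strand, and of the downstream Aldh1a1 start, at chr19:20601718-20602017 on the plus strand, are printed 5′ to 3′ with their longest shared run of 65 bases in capitals.
Aldh1a7: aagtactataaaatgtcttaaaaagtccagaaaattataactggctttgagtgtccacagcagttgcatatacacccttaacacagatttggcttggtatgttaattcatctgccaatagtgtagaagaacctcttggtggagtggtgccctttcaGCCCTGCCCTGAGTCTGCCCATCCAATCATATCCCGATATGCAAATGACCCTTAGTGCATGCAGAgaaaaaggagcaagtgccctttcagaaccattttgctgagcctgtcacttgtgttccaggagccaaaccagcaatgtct
Aldh1a1: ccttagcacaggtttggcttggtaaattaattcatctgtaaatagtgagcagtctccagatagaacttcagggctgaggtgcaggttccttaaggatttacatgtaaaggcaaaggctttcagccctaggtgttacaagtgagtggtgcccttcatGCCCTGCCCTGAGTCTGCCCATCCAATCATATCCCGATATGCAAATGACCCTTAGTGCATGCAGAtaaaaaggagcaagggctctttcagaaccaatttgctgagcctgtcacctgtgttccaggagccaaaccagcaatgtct
Compared position by position without gaps, 142 of the last 150 bases of both windows were identical (94.7%), and 177 of the whole 300 bases were (59.0%). Stretches shared at shifted positions count as differences here. The probe sequences were not used here, so signal shared between the probes of this pair was not tested. Older nomenclature also used Aldh1a7 for Aldh1a2 and Aldh1a2 for Aldh1a1, and the names here are those of the platform annotation.

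Of the class 3 members, Aldh3a1 was higher and Aldh3a2 did not pass. Aldh3a1 oxidises aromatic and medium-chain aldehydes, including products of lipid peroxidation, and is abundant in the mouse cornea. It had intensities of 1499 and 1369 on the Eva1 shRNA arrays, against 431 and 316 on the control arrays. Both knockdown values were more than 3 times either control value. The means were 1434 ± 92.4 in Eva1 shRNA cells and 374 ± 81.6 in control cells (SD, n = 2 each). The log2 change was 1.80 (SE 0.19, 95% interval 1.32 to 2.27), a 3.47-fold rise with an adjusted p = 0.00379 (limma, two-sided). It ranked 187 among the rises. Being bright, it kept a change of 1.75 with 16 units added.

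Aldh3a2, the next coding gene to Aldh3a1 on the chromosome, encodes the fatty aldehyde dehydrogenase of the endoplasmic reticulum, whose loss causes Sjögren-Larsson syndrome in humans. Its intensities were 29.5 and 28.8 in the Eva1 shRNA cells, against 34.9 and 28.0 in the control cells. The log2 change was -0.30 and did not pass (95% interval -0.75 to 0.15, adjusted p = 0.265).

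The mitochondrial enzymes that oxidise acetaldehyde showed small differences. Aldh2, the principal one, had 608 and 604 in the Eva1 shRNA cells, against 547 and 431 in the control cells. Quantile normalization brought these values together: on that log2 scale they were 9.14 and 9.19 in Eva1 shRNA cells, against 9.16 and 8.84 in control cells. The change of 0.16 did not pass (95% interval -0.25 to 0.58, adjusted p = 0.511). Aldh1b1, a close relative, had 16.9 and 15.8 in the Eva1 shRNA cells, against 13.97 and 14.5 in the control cells. Its change was -0.02 (95% interval -0.36 to 0.32, adjusted p = 0.912), and 0.20 with the authors' scaling, so it has no settled direction.

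Of the amino acid enzymes, Aldh6a1 was lower. Aldh6a1 is the mitochondrial methylmalonate semialdehyde dehydrogenase of valine and thymine breakdown. It had 16.7 and 16.02 on the Eva1 shRNA arrays, against 51.3 and 42.4 on the control arrays. The values lay below the array median in the knockdown and above it in the control. The means were 16.3 ± 0.464 in Eva1 shRNA cells and 46.8 ± 6.31 in control cells (SD, n = 2 each). The log2 change was -1.71 (SE 0.16, 95% interval -2.13 to -1.30), a 3.28-fold fall with an adjusted p = 0.0030 (limma, two-sided), the fall of rank 289. With 16 units added it was -1.08.

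Aldh7a1, the antiquitin enzyme of lysine breakdown, was barely above the lowest values of the arrays. It had 2.08 and 2.18 in the Eva1 shRNA cells, against 3.16 on control array 2, and it was blank on control array 1. No test was made on the deposited values, and with the blank cell filled the change was -0.06 (adjusted p = 0.942).

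The promoter table matched 6 of the 10 members by symbol, among them Aldh6a1, whose window is shown because the gene was called. It lies at chr12:84450975-84451274 (GRCm38.p6, minus strand, from RefSeq) and is printed 5′ to 3′, with capitals on every match to the motifs searched.
Aldh6a1: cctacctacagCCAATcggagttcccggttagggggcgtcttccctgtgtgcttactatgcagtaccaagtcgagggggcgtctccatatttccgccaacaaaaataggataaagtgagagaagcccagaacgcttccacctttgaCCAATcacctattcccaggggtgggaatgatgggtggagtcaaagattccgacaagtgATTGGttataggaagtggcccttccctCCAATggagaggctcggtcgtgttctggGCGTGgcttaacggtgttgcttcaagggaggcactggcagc
The motifs, searched on both strands, were ACGTG (the hypoxia response core), GCGTG (the xenobiotic response core), TGACNNNGC (the antioxidant response core) and CCAAT (the CCAAT box, chosen after the window was read). The window held 4 CCAAT matches and 1 GCGTG match, none overlapping another, and no ACGTG or TGACNNNGC. At least 1 CCAAT was in 37.4% of all 32851 windows and at least 4 in 1.06%, while GCGTG was in 32.4%, ACGTG in 19.6% and TGACNNNGC in 12.4%. Aldh6a1 has a further start in the table, whose window held 2 CCAAT matches. The matches describe the letters of these windows and no more.

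**Figure D2:**
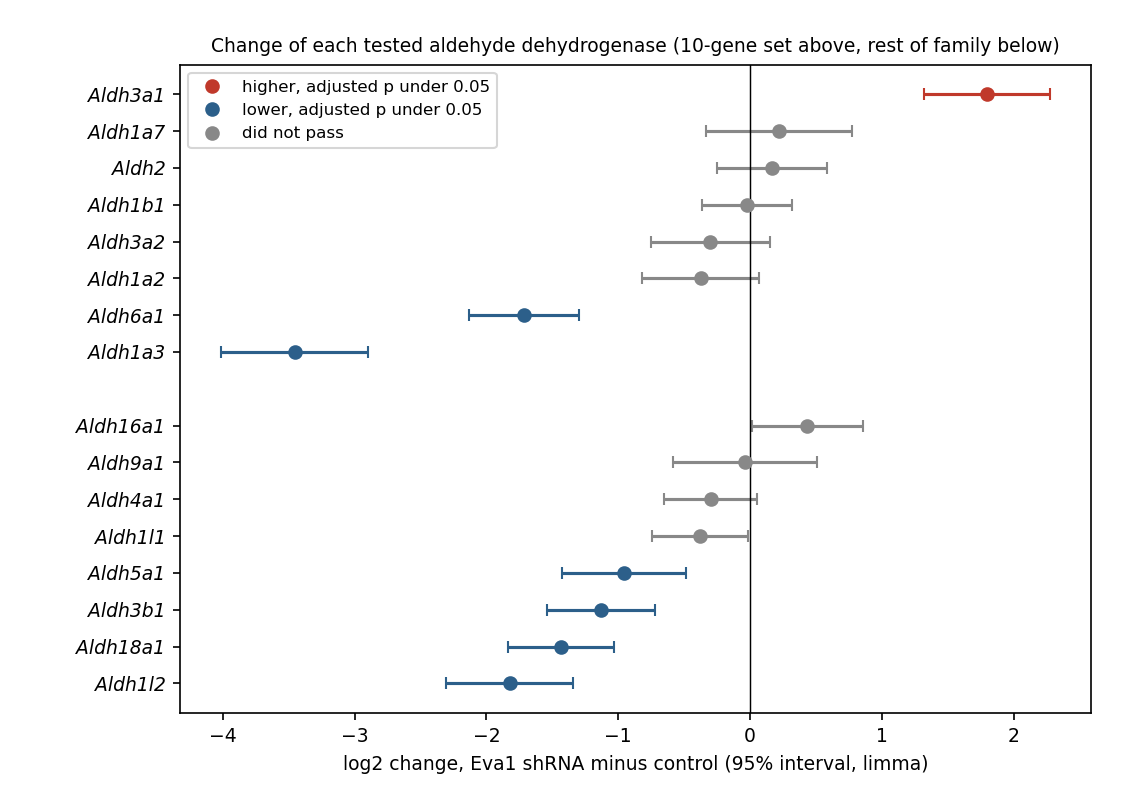
Log2 change, Eva1 shRNA minus control, of each tested aldehyde dehydrogenase with limma's 95% interval, the 8 tested members above and the 8 tested remaining family genes below, coloured by call. Aldh3a1 is the gene called higher, and Aldh1a3 and Aldh6a1 of the members and Aldh1l2, Aldh18a1, Aldh3b1 and Aldh5a1 of the rest are called lower.

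In the rest of the family the calls were all falls. Of the 8 remaining family genes tested, 4 were lower, 0 higher and 4 did not pass, beside 13.5% of all genes lower and 12.5% higher, and the median change was -0.67. Aldh1l2, the mitochondrial 10-formyltetrahydrofolate dehydrogenase, had 4.91 and 3.56 in the Eva1 shRNA cells, against 13.6 and 12.1 in the control cells (log2 change -1.82, SE 0.19, adjusted p = 0.00374). These are dim values, and with 16 units added the change was -0.59. Aldh18a1, which makes pyrroline-5-carboxylate for proline synthesis, had 85.9 and 71.8 in the Eva1 shRNA cells, against 171 and 202 in the control cells. Its change of -1.43 (SE 0.16, adjusted p = 0.00434) was -1.26 with 16 units added. Aldh3b1, which acts on medium- and long-chain aldehydes, had 26.7 and 31.1 in the Eva1 shRNA cells, against 54.5 and 56.5 in the control cells (log2 change -1.13, adjusted p = 0.00819). Aldh5a1, the succinic semialdehyde dehydrogenase of GABA breakdown, had 808 and 974 in the Eva1 shRNA cells, against 1755 and 1379 in the control cells (log2 change -0.96, adjusted p = 0.0199). All 4 were lower on both knockdown arrays than on either control array, as were 34.1% of all genes after normalization.

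The calls of Aldh3b1 and Aldh5a1 depended on the arrays used. Without Eva1 shRNA array 1 the adjusted p was 0.0522 for Aldh3b1 and 0.106 for Aldh5a1, and 2 of the remaining family genes were then called lower. The call of Aldh5a1 was also lost without Eva1 shRNA array 2 and without control array 1. Aldh1l2 and Aldh18a1 kept theirs whichever array was left out.

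The 4 remaining genes that did not pass were Aldh16a1, Aldh9a1, Aldh4a1 and Aldh1l1. Aldh16a1 had 52.0 and 58.9 in the Eva1 shRNA cells, against 37.9 and 34.0 in the control cells, and its change of 0.43 did not pass (adjusted p = 0.118), although it did with the authors' scaling (0.0358), with 16 units added (0.0474) and without the dimmest 25% of probes. Aldh1l1, the cytosolic folate enzyme that marks astrocytes, had 14.1 and 14.2 in the Eva1 shRNA cells, against 16.2 and 15.4 in the control cells (log2 change -0.38, adjusted p = 0.115). Aldh4a1, of proline breakdown, had a change of -0.30 and Aldh9a1 one of -0.04. Aldh8a1 and Aldh3b3 had blank cells and filled values of at most 4.07. Over the 16 family genes tested, members included, 12 changes were below 0 and 6 were called lower and 1 higher, beside 13.5% and 12.5% of all genes, with a median of -0.34. With the authors' scaling 10 of the 16 were below 0, the median was -0.13 and the calls were 6 lower and 2 higher.

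Lists of related pathways are given by their counts, which stand beside 12.5% of all genes called higher, 13.5% lower and 26.0% in either direction. Around the retinaldehyde enzymes, the called retinol dehydrogenase genes of the retinoid list went both ways. Rdh10, which oxidises retinol to retinaldehyde, had 144 and 134 in the Eva1 shRNA cells, against 37.5 and 46.0 in the control cells (log2 change 1.55, SE 0.15, adjusted p = 0.00321). Rdh10 thus rose where Aldh1a3, which acts on its product, fell. Of 13 tested genes of retinoid uptake, synthesis, binding and breakdown, 2 were higher, 1 was lower and 10 did not pass, with a median change of -0.02. Crabp1, a cellular retinoic acid binding protein, had 7317 and 7838 in the Eva1 shRNA cells, against 4187 and 3214 in the control cells (log2 change 0.84, adjusted p = 0.0276). Its call was lost without either Eva1 shRNA array or control array 2, the adjusted p reaching 0.130 when Eva1 shRNA array 2 was dropped. Dhrs9, a short-chain retinol dehydrogenase, had a change of -1.51 (adjusted p = 0.0172), but its intensities were at most 9.57, the change was -0.40 with 16 units added, and leaving out control array 1 or Eva1 shRNA array 1 gave adjusted p-values of 0.0851 and 0.0601. Crabp2 had 0.54 and did not pass.

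The receptors of retinoic acid gave no calls. Of 6 tested, 0 were higher and 0 lower (limma), and the same held in the 14 alternative settings run, while by unadjusted p under 0.05 the count was also 0. The smallest p was that of Rarb, a receptor gene that retinoic acid itself induces, with a change of 0.32 and an adjusted p = 0.253. Rara had -0.14, Rxra -0.17 and Rxrb 0.10, and the signs of such small values changed with the setting. Cyp26a1, the retinoic acid hydroxylase that is another standard induced gene, had 18.1 and 18.2 in the Eva1 shRNA cells, against 14.3 and 17.4 in the control cells (log2 change -0.02). Cyp26b1, a further gene of the retinoid list, was dim, at 2.29 and 2.44 in the Eva1 shRNA cells, against 2.48 and 3.46 in the control cells. Its log2 change of -0.45 did not pass (limma, adjusted p = 0.132). Cyp26a1 and Cyp26b1 were named after their values were seen.

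Other enzymes that act on alcohols, aldehydes and ketones were called lower in several cases. Of 15 tested genes in a list of alcohol dehydrogenases, aldehyde reductases and aldehyde oxidases, 8 were lower, beside 13.5% of all genes, 2 were higher and 5 did not pass, with a median of -0.73. The aldo-keto reductase gene Akr1b10 had 63.7 and 79.3 in the Eva1 shRNA cells, against 221 and 183 in the control cells (log2 change -1.68, adjusted p = 0.00479). Akr1c13 had a change of -1.53. In the other direction, the carbonyl reductase gene Cbr3 had 316 and 314 in the Eva1 shRNA cells, against 41.5 and 42.2 in the control cells, a log2 change of 2.73 (SE 0.14, adjusted p = 0.00101), while its relative Cbr1 had -0.99 (adjusted p = 0.0115). Cbr1 was named after its value was seen, and its call was lost without Eva1 shRNA array 1 and without control array 1. Akr1c14 had a change of 3.06, but its control values of 1.53 and 1.71 were close to the minimum of each array, and with 16 units added it was 0.73. Aldo-keto reductase genes have close paralogs, and shared signal between their probes was not tested. The lower calls numbered 3, 4, 4 and 6 without Eva1 shRNA arrays 1 and 2 and control arrays 1 and 2.

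Genes that handle reactive aldehydes through glutathione, together with other targets of the transcription factor NRF2, went both ways. The list also held Nfe2l2, the gene of NRF2 itself, which was called higher, and Keap1, which did not pass. Both are named in addition to the rule. Of 15 tested, 6 were higher, 4 lower and 5 did not pass, with a median of 0.26. Gsta4, a glutathione transferase that conjugates 4-hydroxynonenal, rose by 1.30, Nqo1, a quinone reductase, by 1.23 and Gclc, of glutathione synthesis, by 1.08. The heme oxygenase gene Hmox1 fell by 1.09 on the log2 scale, a call lost without Eva1 shRNA array 1 (adjusted p = 0.0544). Leaving out the arrays in the order above, 4, 3, 4 and 5 genes were higher and 0, 2, 1 and 2 lower. With the authors' scaling 7 were higher and 2 lower.

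The pathway around Aldh6a1 had calls in both directions. Of 22 tested genes of branched-chain amino acid breakdown, 4 were higher, 2 lower and 16 did not pass, 6 calls beside 26.0% of all genes, with a median of 0.04. The cytosolic transaminase gene Bcat1, at the first step, had 142 and 150 in the Eva1 shRNA cells, against 39.5 and 40.7 in the control cells (log2 change 1.68, SE 0.14, adjusted p = 0.00219). Pccb, a subunit of propionyl-CoA carboxylase, which takes the product of Aldh6a1, rose by 1.33. Mmut, the methylmalonyl-CoA mutase gene that follows it, had a change of -0.83 and Ivd, of leucine breakdown, -0.88, and both calls were lost when single arrays were left out (adjusted p up to 0.103 for Mmut and 0.093 for Ivd). Without any 1 array 2 genes were called higher and at most 1 lower.

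Aldh7a1 belongs to lysine breakdown and Aldh3a2 acts on fatty aldehydes. Of 9 tested genes of lysine breakdown and choline oxidation, 2 were higher and 0 lower: Pipox, pipecolic acid oxidase, at 1.48 and the sarcosine dehydrogenase gene Sardh at 0.83. Both are dim, with changes of 0.50 and 0.27 when 16 units were added. Gcdh, at -0.47, and Dhtkd1, at 0.86, did not pass. The list's higher calls numbered 0, 1, 0 and 2 with the arrays left out in the same order, and without control array 2 Pipox was not among them (adjusted p = 0.0890). Of 12 tested genes of lipid metabolism around fatty aldehydes, not all of which make an aldehyde, 3 were higher, 1 lower and 8 did not pass. The median was -0.01. Sphk1, the kinase that makes sphingosine 1-phosphate, had 106 and 85.1 in the Eva1 shRNA cells, against 24.4 and 16.2 in the control cells (log2 change 2.06, adjusted p = 0.00549), while Sgpl1, the lyase that splits it into a fatty aldehyde, had -0.48 (adjusted p = 0.0549) and passed only in 4 of the alternatives, 16 units added among them (0.00411). Sgpl1 was named after its value was seen. Cyp4f13 had -1.10, with an adjusted p = 0.0515 without Eva1 shRNA array 1. Agps (0.59) and Phyh (0.49) did not keep their calls when any array was left out, and 1 gene of the list was then higher.

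**Figure D3:**
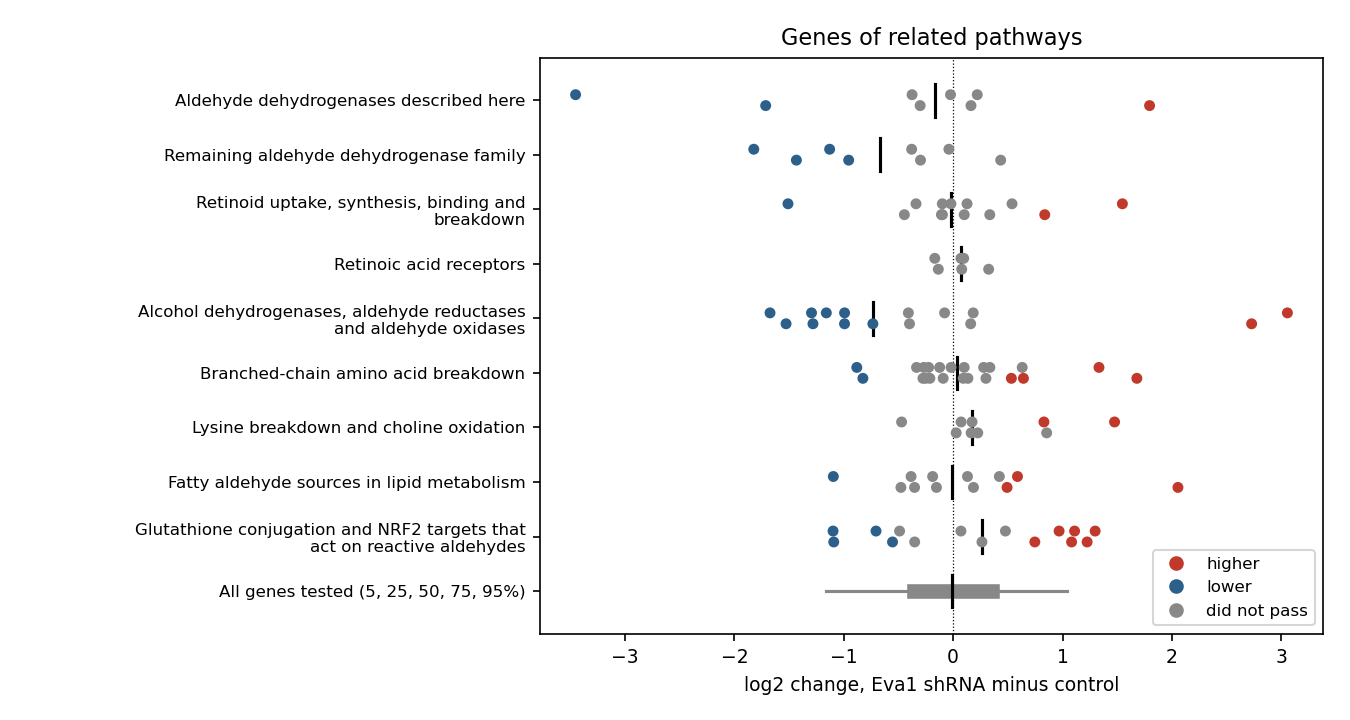
Log2 change of each tested gene by list, Eva1 shRNA minus control, coloured by call, with a black bar at the list median. The bottom row gives all genes tested (thin line from the 5th to the 95th percentile, -1.16 to 1.04, thick line between the quartiles), and Aldh1a3 lies at the far left at -3.45.

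The 3 called members kept their call and direction in the 14 alternative settings run, single arrays left out included. With an array left out, the adjusted p rose to at most 0.0151 for Aldh1a3, 0.0304 for Aldh3a1 and 0.0268 for Aldh6a1.

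**Figure D4:**
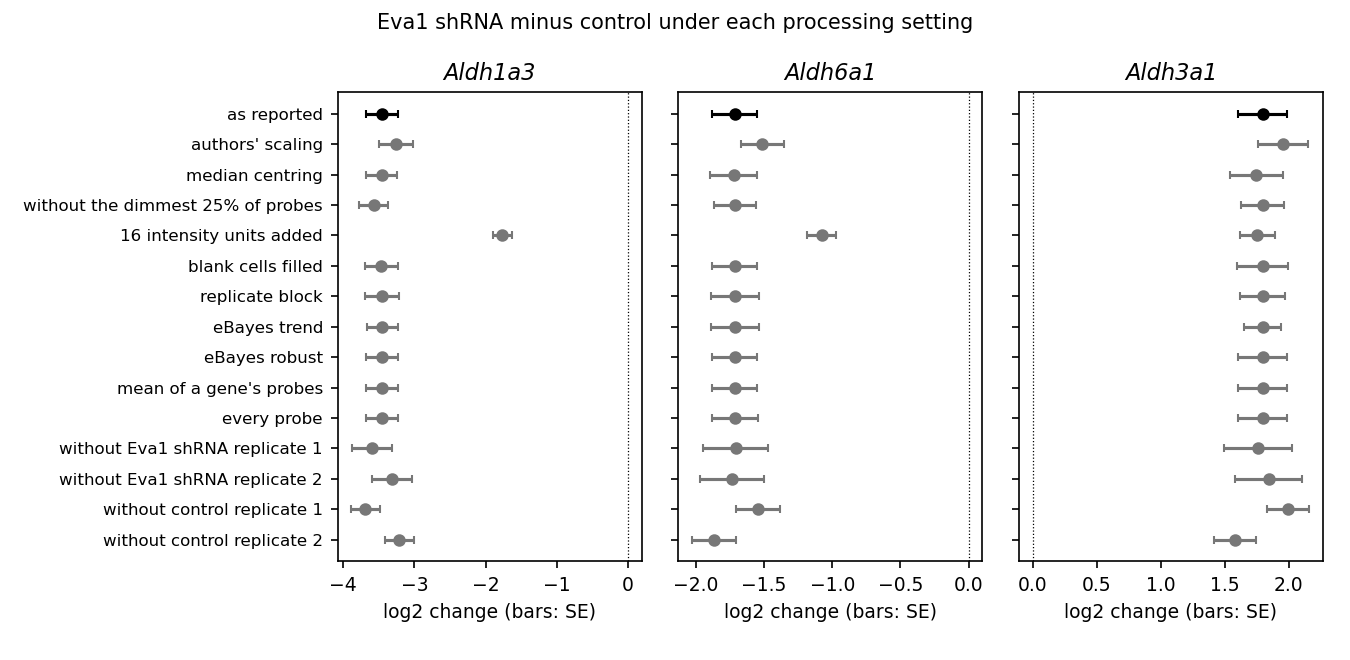
Log2 change, Eva1 shRNA minus control, of the 3 called members in the main fit (top, black) and in each alternative (grey), with bars for the standard error. Each point keeps its side of 0, and adding 16 intensity units gives the smallest change for Aldh1a3 (-1.76) and Aldh6a1 (-1.08).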

How the data were processed

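Messenger RNA was measured on 4 arrays of NSCL61 cells, 2 Eva1 shRNA and 2 control, labelled with Cy5 alone and hybridised to 3D-Gene chips, as the labels state. The authors deposited intensity values on a linear scale, with each array's median near 25. No label or header used here names the scanner, the background correction or the rule for blank cells. On the Eva1 shRNA arrays 6.95% and 8.35% of the probes were blank, against 12.0% and 10.8% on the control arrays. The number of arrays limits the precision.

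Of 23473 probes 16631 had 1 gene symbol, 0 several and 6842 none. Symbols of 3947 were updated through RefSeq (GRCm38.p6). Log2 values of the 19199 probes filled on all arrays were quantile normalized, since the array medians of these probes differed by 0.274 (log2). Each gene took its brightest probe. Groups were compared with limma 3.58.1 (R 4.3.3; lmFit, eBayes, two-sided, Benjamini-Hochberg over 13765 genes), tested on simulated data. Alternatives changed the normalization, an added offset, the dim filter, blank cells, the probe rule, the variance model, a replicate block and the arrays used. By rule, all members and called family genes are named, with up to 4 genes a list by smallest p. The family genes that did not pass were named in addition. Members and lists were chosen with earlier results of these data known. Figures used matplotlib 3.10.9 in Python 3.11.15.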

Additional observations from a re-analysis of the deposited data

How the results depend on the processing

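Of the 47 aldehyde dehydrogenases and list genes followed through the alternatives, 29 kept their side of the threshold in each one run, 13 lost a call in at least 1, 5 gained one, and 0 called changes reversed. The counts of members called, 1 higher and 2 lower, did not change in any of the 14 alternatives. In the remaining family the count of higher calls was 1 in place of 0 with the authors' scaling, without the dimmest 25% of probes and with 16 intensity units added, the gene being Aldh16a1. With 1 array left out, the family's lower calls ran from 2 to 4, all calls from 1271 to 2301 (3576 with every array), and the change of Mpzl2 from -3.29 to -2.98. With 3 arrays the lone array of a group is assumed to vary like the other group, and fewer samples enter the fit. Arrays with the same number did not deviate together (r = -0.01 across probes), so the numbers are taken as names. With the replicate block 3102 genes were called, and the replicate block left the members' counts at 1 and 2. The 2 residual degrees of freedom and dim probes limit the sizes of the changes of Aldh1a3 and Aldh1l2, and 95% intervals cover the spread between these arrays alone.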
